A study of Homo sapiens with 9 samples.

Results

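DDX21 was mapped on the chromatin of A375 cells, a human malignant melanoma line, by chromatin immunoprecipitation and sequencing, and the peak list of cells given DMSO was compared with that of cells given 25 µM A771726 together with nucleotides. Treatment lasted 24 h, as far as the labels give a time. The 2 groups differ in 2 agents at once, drug and nucleotides, and no sample given nucleotides alone was analysed here. The labels state neither the kind nor the dose of the nucleotides. There was 1 library per group, so no difference below has a replicate error and no p-value is given. The comparison covers 16243 peaks, 8321 of the DMSO list and 7922 of the list with nucleotides, of 27469 peaks in the 6 lists of the series. Peaks that overlap between the lists by 1 bp or more are called shared, and the rest DMSO-only or nucleotides-only. All coordinates are of hg19, as deposited. They carry no gene names, because the gene table at hand is of another build.

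DDX21, an RNA helicase of the DEAD-box family, is most abundant in the nucleolus and takes part in the transcription and processing of ribosomal RNA. It is also known to bind 7SK RNA and to act at promoters of genes transcribed by RNA polymerase II. A771726, the active metabolite of leflunomide, inhibits dihydroorotate dehydrogenase and so lowers the supply of pyrimidine nucleotides, which added nucleotides can refill through salvage. The comparison asks how closely the DDX21 sites of cells given drug and nucleotides match those of cells given DMSO.

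DDX21 sites of the 2 conditions were largely the same, and those in 1 list only were its weakest. There were 1141 DMSO-only peaks, 13.7% of that list (95% interval 13.0 to 14.5), and 789 nucleotides-only peaks, 9.96% (9.31 to 10.6). The intervals are exact binomial (Clopper-Pearson) ones, in which each peak counts as independent, and they hold counting error alone. The same lists decide which peaks are in 1 list only, so these shares describe the choice of sites. Their order depends on the unequal lengths of the lists. With equal numbers of top peaks, 88.7% (87.96 to 89.4) of DMSO peaks and 88.3% (87.5 to 88.96) of peaks with nucleotides were shared. The library with nucleotides was the shallower by estimate, with 0.884 times the tags of the DMSO library.

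No peak in the upper part of either list was missing from the other. Peaks were ranked within their own list by −log10 q, the peak caller's significance, and split into 10 deciles. The strongest DMSO-only peak ranked 4253 of 8321, and the strongest nucleotides-only peak ranked 4653 of 7922. All peaks of deciles 6 to 10 were shared in both lists. In decile 5, 9 of 832 DMSO peaks and 1 of 793 peaks with nucleotides were in 1 list only. In decile 1, the weakest, 514 of 832 DMSO peaks and 412 of 792 peaks with nucleotides were. Deciles 1 to 3 held 94.8% of all DMSO-only peaks and 96.8% of all nucleotides-only peaks.

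**Figure D1:**
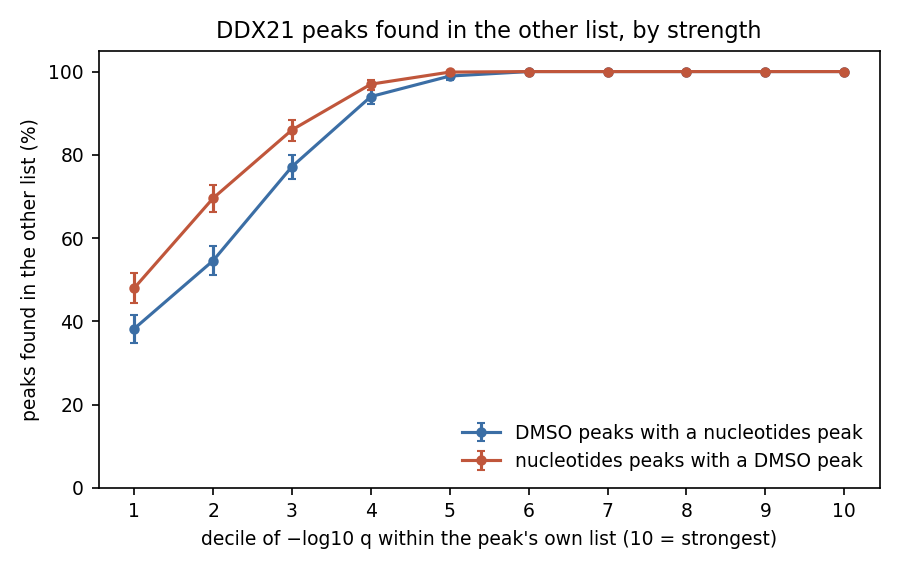
Percentage of DDX21 peaks that overlap a peak of the other list (y) against the decile of −log10 q within the peak's own list (x, 10 is strongest), for DMSO peaks and for peaks with nucleotides. Bars are exact binomial 95% intervals, and both curves reach 100% at decile 6.

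Peaks in 1 list only were narrow and low. DMSO-only peaks had a median width of 165 bp (quartiles 141 and 202), against 331 bp (246 and 451) for the shared peaks of that list. Their median fold enrichment over the local background, column 7 of the list, was 4.64 (3.81 and 5.67) against 11.99 (6.89 and 21.2). Their median −log10 q, column 9, was 6.52 (4.71 and 9.23) against 53.4 (19.7 and 139.97). Nucleotides-only peaks were alike in these respects within their own list. Their median width was 167 bp (143 and 210) against 355 bp (252 and 486), their median fold enrichment 4.12 (3.27 and 5.11) against 11.2 (6.33 and 20.1), and their median −log10 q 5.88 (4.21 and 8.13) against 47.3 (16.9 and 127.9). The widest was 448 bp among DMSO-only peaks and 797 bp among nucleotides-only peaks.

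Many of these peaks had less than 1.5 times the fragments that the peak caller's threshold required. The pileup, the number of fragments over a summit, was recovered from the fold enrichment and p-value of the peak and set beside the smallest pileup that would reach the lowest −log10 p of the same list at the same local background. DMSO-only peaks had a median of 21 fragments, 1.57 times that minimum, and shared DMSO peaks had 75 fragments, 4.56 times. Nucleotides-only peaks had a median of 23 fragments, 1.44 times the minimum, and shared peaks of that list had 68, or 4.18 times. Fewer than 1.5 times the minimum was found for 40.2% of DMSO-only and 54.6% of nucleotides-only peaks, against 4.57% and 5.62% of shared peaks. At least 3 times the minimum was reached by 16 DMSO-only and 3 nucleotides-only peaks. In significance most were not at the limit. A −log10 q of at least 5 was reached by 789 of 1141 DMSO-only and 498 of 789 nucleotides-only peaks, where the lowest values of the lists were 1.31 and 1.35. Among shared peaks it was 6957 of 7180 and 6881 of 7133. The other library has no value at these sites, so a missing peak does not by itself show an empty site.

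Among the weak peaks, those in 1 list only were still the narrower ones. Within deciles 1 to 3 of the DMSO list, the 1082 DMSO-only peaks had a median width of 164 bp and a median pileup of 21 fragments, and the 1414 shared peaks had 205 bp and 28 fragments. Median fold enrichments were close there, at 4.51 and 4.67, but median −log10 q was 6.34 and 9.42, so strength was not matched. In deciles 1 to 3 of the list with nucleotides, the 764 nucleotides-only peaks had a median width of 166 bp and the 1612 shared ones 203 bp. Median fold enrichments were 4.08 and 4.74 there, and median −log10 q was 5.85 and 8.85.

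**Figure D2:**
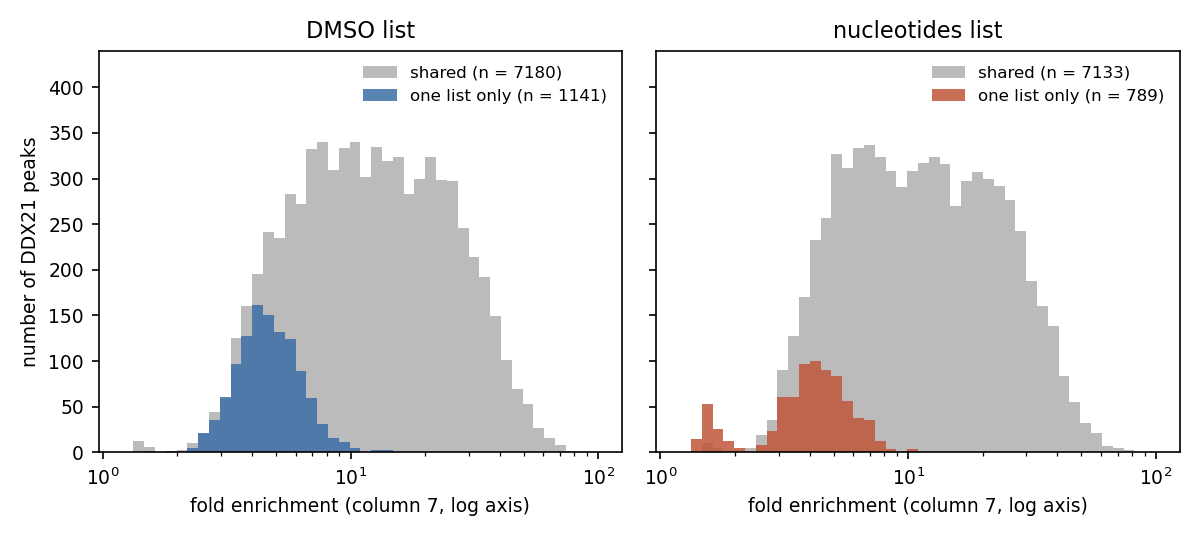
Number of DDX21 peaks (y) by fold enrichment over the local background (x, log axis) in the DMSO list and in the list with nucleotides, shared peaks in grey and peaks of 1 list only in colour. Peaks of 1 list only sit at the low end, with medians of 4.64 and 4.12, and those with nucleotides form a second group at lower folds, where the 124 peaks of high background have a median of 1.59.

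Part of the peaks in 1 list only lay beside a peak of the other list. Of the DMSO-only peaks, 163, or 14.3%, had a nucleotides peak within 500 bp, and of the nucleotides-only peaks 147, or 18.6%, had a DMSO peak that near. The median distance to the nearest peak of the other list was 53.8 kb for DMSO-only and 38.3 kb for nucleotides-only peaks, so most were sites of their own.

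The strongest DMSO-only site spanned 219046873 to 219047091 of chromosome 1 and had a fold enrichment of 13.7, a −log10 q of 37.96 and 45 fragments at the summit. The next spanned 108867829 to 108868009 of chromosome 13, at a fold enrichment of 12.1 and a −log10 q of 35.5. On chromosome 5, the sites from 140457536 to 140457736 and from 35651210 to 35651465 had fold enrichments of 14.4 and 14.3 and −log10 q of 33.1 and 31.6. All 10 of the strongest DMSO-only sites were between 165 and 256 bp wide, and none had a peak in the DDX21 list of A771726 alone or in the CDK9 lists of DMSO cells and of cells with nucleotides. Over all 1141 DMSO-only peaks such overlaps were also few, at 0.789%, 7.80% and 4.56%, so their absence does not mark out these 10. CDK9, the kinase subunit of P-TEFb, acts in the release of paused RNA polymerase II. The others were on chromosome 19 from 48112301 to 48112497 and from 2163649 to 2163825, chromosome 11 from 80009348 to 80009590, chromosome 17 from 1171505 to 1171680, chromosome 2 from 86231229 to 86231393, and chromosome 8 from 11058962 to 11059133. Their −log10 q ran from 30.7 to 24.6, and the one on chromosome 8 had a nucleotides peak 0.026 kb away. None of the 10 was a pericentromeric site, since the nearest lay 6.09 Mb from a centromere gap.

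The strongest nucleotides-only sites were weaker within their list. First came the site at 2936517 to 2936814 of chromosome 4, which had a fold enrichment of 7.25, a −log10 q of 25.5 and 50 fragments. Chromosome 1 from 47133958 to 47134160 had a fold enrichment of 8.41 and a −log10 q of 23.6, and chromosome 16 from 81110739 to 81111045 had 7.15 and 22.8. The highest fold enrichment of any nucleotides-only peak, 11.8, was that of the site on chromosome 7 from 133762171 to 133762322, with 25 fragments over a low local background of 1.21. The next sites were chromosome 2 from 45878136 to 45878293 and from 9771092 to 9771323, chromosome 19 from 1592209 to 1592578, chromosome 8 from 43092796 to 43093042, chromosome 10 from 115614651 to 115614805 and chromosome 1 from 24104905 to 24105123. The −log10 q of these 6 ran from 21.6 to 18.3. The peak on chromosome 10 and the last one on chromosome 1 had a DMSO peak 0.064 and 0.113 kb away.

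Sites with nucleotides and with drug alone, but without a DMSO peak, were rare. Of the 789 nucleotides-only peaks, 4 overlapped a DDX21 peak of the A771726 list, or 0.507% (0.138 to 1.29). One was the chromosome 7 site above, with 18 fragments and a fold enrichment of 8.78 in the A771726 list. A pair lay close together on chromosome 8, from 43092796 to 43093042 and from 43095826 to 43096050, with 42 and 24 fragments with nucleotides and 63 and 47 with A771726. The last was on chromosome 1 from 231558249 to 231558387, with 34 and 15 fragments. The chromosome 8 sites lay 0.746 and 0.743 Mb from the centromere gap. Both also had a CDK9 peak with nucleotides, and the second had a CDK9 peak in DMSO as well. The sites on chromosomes 7 and 1 had a CDK9 peak in neither of these lists. The A771726 list held only 4375 peaks, and 59.3% of the shared peaks of the list with nucleotides, which are stronger, overlapped one. Within deciles 1 to 3 the share was 4.78% for the shared peaks and 0.262% (0.0317 to 0.942) for the 764 nucleotides-only ones. Median −log10 q was 8.85 and 5.85 there, so strength was not matched.

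DMSO-only sites were also nearly absent from the A771726 list. Only 9 of 1141 overlapped one of its peaks, or 0.789% (0.361 to 1.49). Within deciles 1 to 3 it was 8 of 1082 DMSO-only peaks, or 0.739% (0.320 to 1.45). Of the 1414 shared DMSO peaks of these deciles 5.23% (4.13 to 6.53) overlapped one. Strength was not matched, as the median −log10 q was 6.34 for the DMSO-only and 9.42 for the shared peaks there. The strongest of the 9 spanned 149513870 to 149514276 of chromosome 1 and had a fold enrichment of 7.31 and 44 fragments in DMSO and 16 fragments with A771726. It also had a CDK9 peak in DMSO and with nucleotides, and a DDX21 peak with nucleotides lay 0.217 kb away.

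CDK9 peaks, which took no part in the choice of sites, lay on DMSO-only and nucleotides-only sites at different rates. A CDK9 peak of DMSO cells lay on 89 DMSO-only sites, or 7.80% (6.31 to 9.51), and on 20 nucleotides-only sites, or 2.53% (1.56 to 3.89). The shared peaks gave 7.31% in the DMSO list and 7.28% in the list with nucleotides. With the CDK9 list of cells given nucleotides, the shares were 4.56% (3.42 to 5.93) and 3.68% (2.47 to 5.24), with overlapping intervals. Among peaks of deciles 1 to 3, a CDK9 peak of DMSO cells lay on 7.39% (5.91 to 9.12) of DMSO-only and 2.62% (1.61 to 4.01) of nucleotides-only sites, against 5.23% and 6.14% of the shared peaks of the 2 lists. The intervals of the 1-list sites do not overlap, but they hold no error between libraries, and each CDK9 list is 1 library as well. Without sites of high local background, described next, the share of nucleotides-only sites was 2.86% (1.73 to 4.43) and that of DMSO-only sites 7.57% (6.09 to 9.27).

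Pericentromeric stretches set the nucleotides-only sites apart from the DMSO-only ones. Human centromeres and the DNA beside them consist largely of satellites, short units repeated in many near-identical copies, of which this assembly holds few. Repeat annotation of hg19 was not used here, so stretches are described by position and by local background, the number of fragments that the peak caller expected at a site. Within 5 Mb of a centromere gap lay 130 nucleotides-only peaks, or 16.5% (13.95 to 19.3), and 91 DMSO-only peaks, or 7.98% (6.47 to 9.70). Shared peaks gave 6.77% in the list with nucleotides and 6.80% in the DMSO list. Within 1 Mb the shares were 9.25% (7.32 to 11.5) of nucleotides-only peaks and 1.84% (1.14 to 2.80) of DMSO-only peaks. These intervals count neighbouring peaks as independent, although 20 of the 130 lay in 1 stretch of chromosome 10, so they are too narrow for clustered peaks.

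Many of these nucleotides-only peaks had a high local background. A background of at least 10 times the lowest of the list was found at 124 nucleotides-only peaks, or 15.7% (13.2 to 18.4), and at 18 DMSO-only peaks, or 1.58% (0.938 to 2.48). Among shared peaks it was 5.26% with nucleotides and 5.10% in DMSO, so nucleotides-only peaks lay above and DMSO-only peaks below them. In both lists this order depends on the limit. At 5 times the lowest background the shares were 36.5% of nucleotides-only against 46.1% of shared peaks, and 16.7% of DMSO-only against 40.9%. At 20 times they were 14.1% against 0.701%, and 0.526% against 0.599%. At 50 times they were 12.3% against 0.280%, and 0.263%, from 3 DMSO-only peaks, against 0.251%. Of the peaks within 5 Mb of a centromere gap, 69 of 130 nucleotides-only and 7 of 91 DMSO-only peaks had a background of at least 10 times the lowest. Counting also the heterochromatin gaps that adjoin some centromere gaps, it was 109 of 176 and 7 of 94. The 124 peaks had a median background of 101.7 fragments, a median pileup of 158.5 and a median fold enrichment of 1.59. The other 665 nucleotides-only peaks had a median background of 4.19, a median pileup of 21 and a median fold enrichment of 4.40, close to the 4.64 of the DMSO-only peaks of low background. The peaks of high background were thus tall in fragments and small in enrichment, with at most 3.81-fold. Their pileup was a median of 1.12 times the smallest that the threshold allowed. Leaving out all peaks of high background, the 375 shared ones too, 665 of 7423 peaks with nucleotides, or 8.96% (8.32 to 9.63), had no DMSO peak.

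**Figure D3:**
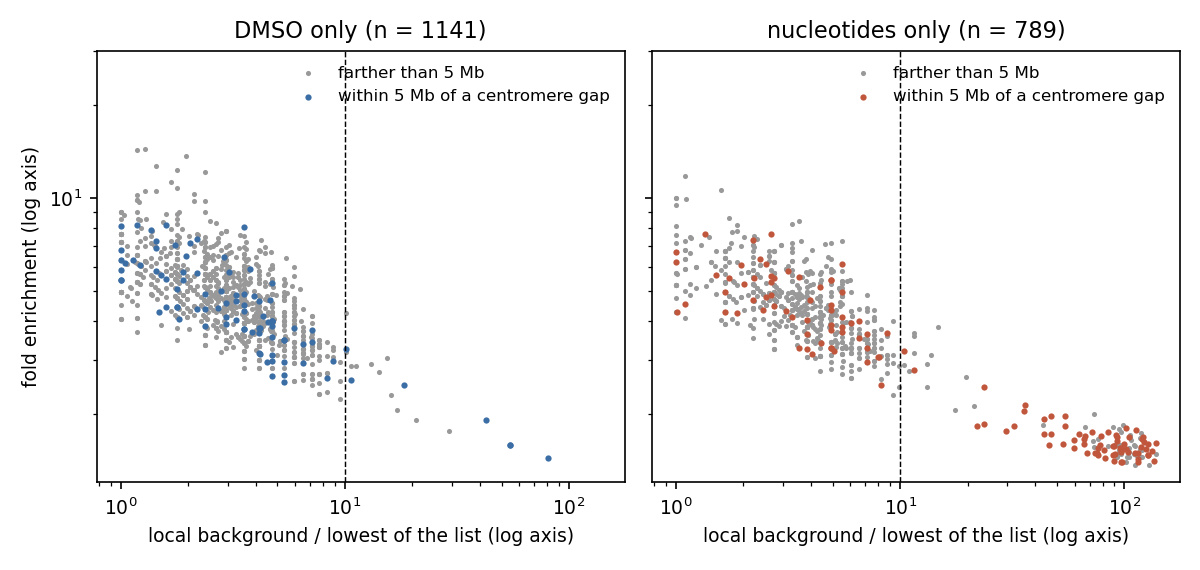
Fold enrichment (y, log axis) against local background as a multiple of the lowest of the list (x, log axis) for DMSO-only and nucleotides-only DDX21 peaks, with those within 5 Mb of a centromere gap in colour and a dashed line at 10 times. Right of the line lie 18 DMSO-only and 124 nucleotides-only peaks, the latter mostly near the median of 92.4 times the lowest background and a fold of 1.59.

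Nucleotides-only peaks of high background were gathered in a few stretches. Stretches were runs of at least 3 peaks of 1 list only with gaps of at most 10 kb. There were 12 such stretches with 97 nucleotides-only peaks, 12.3% of all, and 4 with 13 DMSO-only peaks, 1.14% of all. Of the 124 peaks of high background, 91 lay in the 12 stretches and 59 in the first 2 of them.

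The longest stretch lay on chromosome 16 from 46386880 to 46435530, where 39 nucleotides-only peaks filled 48.7 kb. It lies 1.08 kb from the heterochromatin gap that adjoins the centromere gap of this chromosome and 8051 kb from the centromere gap itself, so it is not among the 130 peaks above. None of the other 5 lists, DDX21 or CDK9, held a peak there. Local backgrounds ran from 67.1 to 138.2 times the lowest of the list, pileups from 126 to 228 fragments, with a median fold enrichment of 1.55 and −log10 q from 1.45 to 12.2. Chromosome 16 had 75 nucleotides-only peaks of 454, or 16.5%, and 7.91% when sites of high background were left out.

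The second was on chromosome 10 from 42380153 to 42400600, with 20 nucleotides-only peaks and 1 DMSO-only peak that overlapped none of them. It lay 125.2 kb from the centromere gap. The 20 peaks had fold enrichments from 1.39 to 1.75 and pileups from 126 to 246 fragments. The DMSO peak had a fold enrichment of 1.44 and 141 fragments. The CDK9 lists of DMSO cells and of cells with nucleotides had 1 peak each in this stretch. Further runs of 3 and 4 nucleotides-only peaks lay on the same chromosome from 42356080 to 42366451 and from 42596804 to 42600186, with median fold enrichments of 1.65 and 1.68 and no DMSO peak.

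Other stretches of this kind were shorter, and several held DMSO peaks too. On chromosome 4 from 49636175 to 49644200, 15.9 kb from the centromere gap, there were 5 nucleotides-only peaks and no DMSO peak, with a median fold enrichment of 1.72. On chromosome 2 from 92306706 to 92321802, 4.37 kb from the gap, the list with nucleotides had 8 peaks and the DMSO list 5, with median fold enrichments of 1.54 and 1.47 and median pileups of 143 and 142 fragments. On chromosome 18 from 18517098 to 18520053 there were 4 peaks with nucleotides, at a median pileup of 147.5 fragments, and 1 in DMSO, at 163. On chromosome 2 from 133025675 to 133034854, far from the gap, 3 nucleotides-only peaks and 1 DMSO-only peak had median fold enrichments of 3.11 and 2.74.

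Some pericentromeric stretches had peaks in both lists. On chromosome 20 from 26188745 to 26190575 each list had 4 peaks, all shared, with median pileups of 114.5 fragments in DMSO and 113 with nucleotides. On chromosome Y from 10033423 to 10037974 each had 5, all shared, with medians of 61 and 68 fragments. On chromosome 6 from 58776221 to 58779387 the DMSO list had 4 peaks and the list with nucleotides 5, of which 1 was nucleotides-only, with median pileups of 226.5 and 229 fragments over median backgrounds of 164.1 and 144.9, or 135 and 132 times the lowest of each list. On chromosome 19 from 27731932 to 27738709 there were 2 and 5 peaks, of which 3 were nucleotides-only and made up 1 of the 12 stretches. Median pileups there were 194.5 and 205 fragments, over backgrounds of 112 and 111 times the lowest of each list.

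Over whole lists, 117 peaks with nucleotides and 21 DMSO peaks had a background of at least 50 times the lowest of their list, against 3 in the A771726 list. Of the 117 and 21 DDX21 peaks, 97 and 3 were in 1 list only. The part of local background in these counts was not tested. Peaks of 1 stretch are also not independent sites.

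Stretches of intermediate kind lay on chromosomes 16 and 21. On chromosome 16 from 33950973 to 33966100 the DMSO list had 4 peaks, all shared, and the list with nucleotides 9, of which 5 were nucleotides-only. Fold enrichments there reached 13.1 in DMSO and 8.76 with nucleotides, and the A771726 list had 5 peaks. On chromosome 21 from 9825380 to 9837675, DMSO had 9 peaks, 3 of them DMSO-only, and the list with nucleotides 11, of which 5 were nucleotides-only. Median fold enrichments were 5.10 and 4.39, and median local backgrounds were low, at 2.92 and 5.59 fragments. Pileups in this stretch reached 256 and 262 fragments, the limit of each list, and local backgrounds reached 40.8 and 47.2 times the lowest. The A771726 list had 2 peaks there.

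The DMSO-only stretches were of another kind, with low backgrounds. On chromosome X from 151082558 to 151084770 there were 4 DMSO-only peaks within 2.21 kb, with fold enrichments from 5.42 to 7.67 and pileups of 11 to 16 fragments over a median background of 1.22 fragments, the lowest of the list. None of the other 5 lists had a peak there. On chromosome 6 from 27100873 to 27113971 there were 3 DMSO-only peaks, with fold enrichments from 4.38 to 5.64, beside 1 DDX21 peak with A771726, 4 CDK9 peaks in DMSO and 6 CDK9 peaks with nucleotides. On chromosome 15 from 57179222 to 57179930 there were 3, with fold enrichments from 3.48 to 4.25 and 1 CDK9 peak in DMSO. The fourth was part of the chromosome 21 stretch.

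Shared sites were alike in position and in height. Of the 7180 shared DMSO peaks and 7133 shared peaks with nucleotides, 6923 formed one-to-one pairs. Another 55 DMSO peaks overlapped 2 peaks with nucleotides, and 102 peaks with nucleotides overlapped 2 DMSO peaks. Summits of a pair were a median of 12 bp apart, and 90.9% of pairs had them within 50 bp. The overlap covered a median of 82.8% of the stretch that the 2 peaks spanned together. Peaks with nucleotides were the wider in 61.2% of pairs, with median widths of 354 bp against 331 bp.

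Heights differed little at these pairs. Pileup has a ceiling in these lists, 256 fragments in DMSO and 262 with nucleotides, which is exactly 2 times the width of the shortest peak of each. At 95% of it or more were 308 DMSO and 259 nucleotides peaks of the pairs, where equal heights are no sign of similarity. The median pileup was 76 fragments in DMSO and 69 with nucleotides. Divided by the lowest background of each list, which corrects for depth, the median heights were 62.5 and 62.7, and the median ratio of nucleotides to DMSO was 1.04 (quartiles 0.930 and 1.13). The direction of this small difference depends on the scaling, since the ratio of raw pileups was 0.941. A height at least 1.5 times higher with nucleotides was found at 148 pairs, or 2.14%, and at least 1.5 times lower at 140, or 2.02%.

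The spread of the ratio is given beside the Poisson counting value, as a description only. In decile 5 of the DMSO list, where median pileups were 53 and 47 fragments, the log2 ratio had an SD of 0.31 over 802 pairs, and Poisson counting of the 2 pileups gives 0.29. In decile 3 the SD was 0.33 over 605 pairs and counting gives 0.37, and in decile 8 it was 0.19 over 817 pairs and counting gives 0.18. In deciles 1 to 3, 9 and 10 the spread was below the counting value, with 0.29 against 0.42 in decile 1 and 0.08 against 0.13 in decile 10, so the counting value is no lower limit of it. Only sites with a peak in both lists enter here, and in decile 10 the median pileups of 233 and 229 fragments were near the ceiling.

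Heights went together over sites, as a description of these 2 libraries. Over the 6923 pairs, Spearman's rho was 0.976 for height, 0.952 for −log10 q, 0.879 for fold enrichment and 0.850 for width, and Pearson's r of log height was 0.973. Local background, which enters fold enrichment and −log10 q but not height, had a rho of 0.701. All pairs share the same 2 libraries, and the ceiling enters every value of height. Within deciles 1 to 3 of the DMSO list the rho of height was 0.764 over 1303 pairs. The ranking by −log10 q differed more at the very top. Of the top 10 DMSO peaks 2 overlapped one of the top 10 with nucleotides, of the top 100 it was 42, and of the top 1000 it was 847. Pileups are near the ceiling at the top and local background enters this ranking, so it does not show that heights differ there.

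Among weak sites, the direction of the ratio depended on which list ranked the pairs. Ranked in the DMSO list, the pairs of decile 1 had a median ratio of 1.19 (1.16 to 1.23). Ranked in the list with nucleotides, the pairs of decile 1 had 0.930 (0.894 to 0.954). In decile 10 both rankings gave nearly the same value, 1.09 (1.09 to 1.10) and 1.10 (1.10 to 1.11). Near the ceiling the pileups were close, with medians of 233 and 229 fragments in decile 10 of the DMSO list. Equal pileups give the ratio of the lowest backgrounds, 1.10. No change of weak or strong sites is therefore read from these medians.

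**Figure D4:**
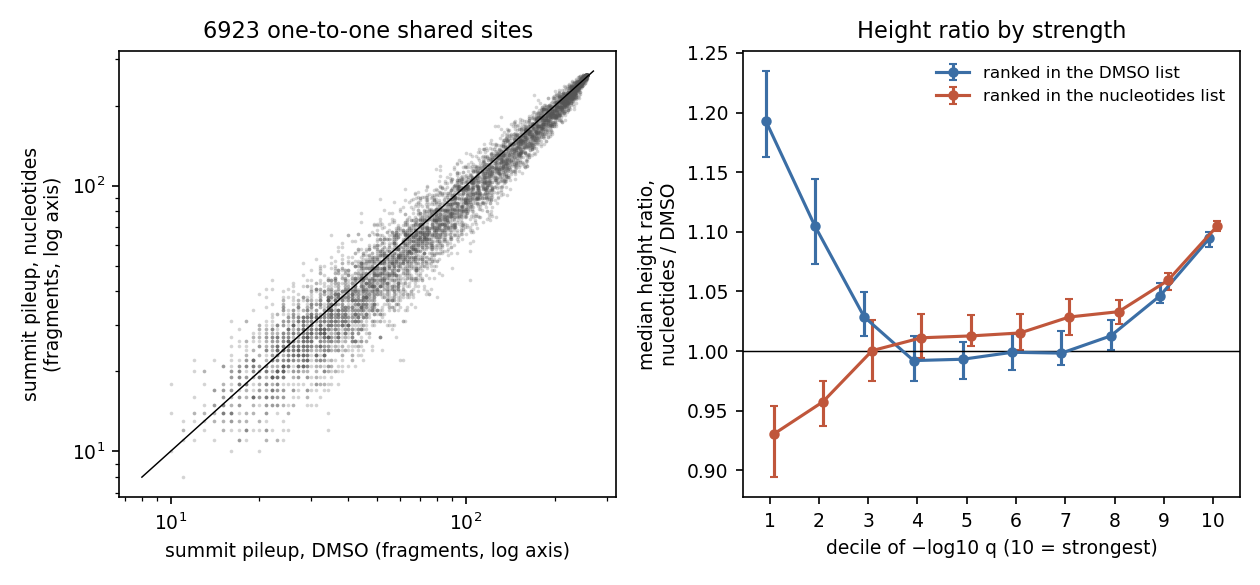
Left, summit pileup with nucleotides (y) against DMSO (x), both in fragments on log axes, for 6923 one-to-one shared DDX21 sites, with the line of equal pileups. Right, median ratio of depth-corrected heights (y) by decile of −log10 q (x) ranked in either list, with order-statistic 95% intervals: the 2 rankings part at decile 1, at 1.19 and 0.930, and meet at decile 10.

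The strongest shared sites had pileups near the ceiling in both lists, so their heights cannot be compared and only rank, position and background are described. The first of the DMSO list, on chromosome 14 from 82000013 to 82000671, ranked 3 with nucleotides, with 243 and 242 fragments, summits 2 bp apart and fold enrichments of 76.0 and 73.8. The second, on chromosome 16 from 68482416 to 68482891, ranked 323 with nucleotides, with pileups of 249 and 251 fragments. Its local background was 2.49 fragments in DMSO and 7.85 with nucleotides, and its fold enrichments were 71.7 and 28.5. The third, on chromosome X from 48979903 to 48980424, had 249 and 250 fragments. The fourth, on chromosome 4 from 2537877 to 2538450, had 233 and 226, and the fifth, on chromosome 2 from 242447856 to 242448463, had 251 and 259.

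Sites at both ends of the height ratio are given with exact Poisson 95% intervals of their pileups, and overlap is judged after the bounds are divided by the lowest background of each list. The lowest ratios, among the 6561 pairs with at least 20 fragments in both lists, were led by chromosome 1 from 151319889 to 151320123. It had 61 fragments in DMSO (46.7 to 78.4) and 22 with nucleotides (13.8 to 33.3), a height ratio of 0.398. The site on chromosome 11 from 64376904 to 64377166 had 60 (45.8 to 77.2) and 22 (13.8 to 33.3), a ratio of 0.405. Chromosome 1 from 45187019 to 45187662 followed with 103 (84.1 to 124.9) and 44 (31.97 to 59.1), then chromosome 10 from 79705895 to 79706207 with 52 and 24, and chromosome 17 from 56756684 to 56757062 with 58 and 27. The scaled intervals overlapped at 1 of these 5 sites, that on chromosome 10. These sites were picked as the extremes of many, and the intervals cover counting error only.

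At the other end, chromosome 5 from 81267789 to 81267997 had 22 fragments in DMSO (13.8 to 33.3) and 44 with nucleotides (31.97 to 59.1), a height ratio of 2.21. Next came the sites on chromosome 6 from 26172124 to 26172384, with 21 and 41 fragments, chromosome 10 from 38146532 to 38146698, with 20 and 39, and chromosome 19 from 18942806 to 18942948, with 22 and 41. The site on chromosome 7 from 72971454 to 72971838 had 35 (24.4 to 48.7) and 65 (50.2 to 82.8). The scaled intervals overlapped at 2 of these 5, those on chromosomes 10 and 19. None of these 5 sites had a DDX21 peak with A771726 alone, and of the 5 lowest only that on chromosome 1 from 45187019 had one. Such a peak was also missing at 2779 of all 6923 pairs. Of the 1414 shared DMSO peaks of deciles 1 to 3, 5.23% had one. The sites of highest ratio lay in these deciles, except that on chromosome 7, in decile 4. The 5 of lowest ratio lay in deciles 5 to 7, for which the share was not worked out. No trait of these sites is therefore read from the absence of such a peak.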

How the data were processed

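Peak lists of 6 immunoprecipitated libraries were read, each grouped by its sample's title. No use was made of the 3 inputs. Per the submitters' processing notes, Bowtie, MACS2 2.0 and hg19 were used, and their parameters and the control are not stated. Each deposited list is of 1 library and gives per peak the authors' fold enrichment (a ratio), −log10 p-value and −log10 q. A deposited score, a rounded multiple of −log10 q, was left out.

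Read totals are unknown. Pileup and local background were solved from fold enrichment, as (pileup + 1) over (background + 1), and from −log10 p, as a Poisson tail, which gave a whole-number pileup within 0.001 for 100% of peaks. Height is pileup over the list's lowest background. Tags relative to DMSO are lowest background over shortest peak. Pileup recovery, overlap calls and the median of height ratios were tested on simulated data, and the other steps were not. Centromere gaps of hg19 were entered by hand from knowledge of that assembly, and 0 peaks lay inside them. Named sites follow ranks within a list (the top 10 of 1 list only, the top 5 shared, the 5 lowest and 5 highest height ratios) and stretches by number of peaks. The sites shared with the A771726 list were named after their values were seen. Members and lists were chosen with earlier results of these data known. Python 3.11.15, pandas 2.3.3 and scipy 1.17.1 were used. The intended count of sites near gene starts was not made, for want of hg19 annotation.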

Additional observations from a re-analysis of the deposited data

How the results depend on the processing

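Of 36 alternatives, 33 planned and 3 chosen after seeing the data, 6 changed the value by less than its 95% interval, 29 moved and 1 reversed. Most moves were small, but with equal numbers of top peaks the shared shares of the 2 lists changed order. DMSO peaks with a nucleotides peak, 86.3% as reported, were 87.5% at −log10 q of at least 5 in both lists, 89.8% with that limit in the DMSO list only, 85.2% with summits within 250 bp, 88.2% with peaks within 500 bp, 88.7% with equal numbers of top peaks and 87.7% with peaks within 1 kb merged. Peaks with nucleotides that had a DMSO peak, 90.04% as reported, were 91.3%, 93.3%, 89.2%, 91.9%, 88.3% and 91.9% under the same settings, 89.3% when the shorter peak had to be overlapped by 50%, 91.04% without high background, 90.98% without peaks within 5 Mb of a centromere gap, and 90.7% without the stretches of 20 or more nucleotides-only peaks, a setting added after seeing the data. Pericentromeric shares followed the distance: within 2 and 1 Mb they were 3.59% and 1.84% of DMSO-only peaks and 12.04% and 9.25% of nucleotides-only peaks. The latter were 13.7% at −log10 q of at least 5 and 22.3% with the adjoining heterochromatin gaps counted, also added later. Shares at high background were 16.7% and 0.526% of DMSO-only peaks at 5 and 20 times the lowest background, and 36.5% of nucleotides-only peaks at 5 times. The median height ratio reversed to 0.941 with raw pileup, and was 1.06 over estimated tags, 1.05 in the stronger and 1.03 in the weaker sites by DMSO rank. The rank correlation was 0.974 without high background. With 1 library per group, no replicate could be left out. No paired analysis was possible because each group has 1 library and no test was made. The part of depth at the weak end of the lists was not tested, and a site without a peak there may still be occupied.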

Other observations

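By chromosome, DMSO-only peaks ranged from 8.12% (4.96 to 12.4) of DMSO peaks on chromosome 14 to 20.5% (12.6 to 30.4) on chromosome 21. Nucleotides-only peaks ranged from 6.04% (2.80 to 11.2) on chromosome 22 to 19.05% (5.45 to 41.9) on chromosome Y, where all 4 were at high local background, and 18.8% (14.6 to 23.7) on chromosome 10. Without sites of high background, chromosome 10 had 10.3%, chromosome 16 had 7.91% and chromosome 4 had 11.6% nucleotides-only peaks. Chromosome 1 held 8 of the 18 DMSO-only peaks of high background and 1 of the 124 nucleotides-only ones.

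The limit of 1 bp divided close neighbours. The pair with the smallest overlap, 1 bp, lay on chromosome 16, with a DMSO peak from 31454042 to 31454271 and a nucleotides peak from 31454271 to 31454501, at fold enrichments of 4.81 and 3.44. Pairs on chromosome 7, with DMSO from 72298635 to 72298872, and chromosome 17, with DMSO from 29035217 to 29035344, overlapped by 3 and 4 bp. Just outside, a DMSO-only peak on chromosome 7 from 100887581 to 100887755 ended where a nucleotides peak of 25.4-fold enrichment began, and a nucleotides-only peak on chromosome 1 from 154946372 to 154946502 ended where a DMSO peak of 5.45-fold enrichment began. On chromosome 19, a DMSO-only peak from 22018815 to 22018954 and a nucleotides-only peak from 22018959 to 22019089 were 4 bp apart, with fold enrichments of 3.55 and 3.84. The remaining neighbours just outside were on chromosome 1, a DMSO-only peak from 161369410 to 161369706 with a gap of 6 bp, and on chromosome 21, a nucleotides-only peak from 47744262 to 47744403 with a gap of 1 bp.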
